A study of Citrus x aurantiifolia with 4 samples.

Results

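The loci described here are 49 assembled genes of acid lime leaves whose RNA was higher in both transgenic libraries than in both wild-type libraries. They were taken from 81380 assembled genes, of which 54600 had a value of 1 or more in a library. The leaves came from acid lime (Citrus x aurantiifolia, cultivar Pramalini). WT stands for leaves of wild-type plants (2 libraries), and TG for leaves of PCR-positive transgenic plants that overexpress a trypsin inhibitor of the tree Putranjiva roxburghii (2 libraries). The promoter of the transgene, the number of transgenic lines, the age of the plants and any treatment are not given in the sources used here. Whether the 2 libraries of each genotype stem from different plants is not stated, so the spread between them may be technical.

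Plant trypsin inhibitors bind and block digestive and other serine proteases and belong to the defence against insects and microbes. According to its title, the series is concerned with how such plants tolerate multiple stresses. Acid lime is a hybrid between citrus species, so its chromosome copies differ in sequence. A de novo assembler, which builds transcripts from reads without a genome, can then report the copies of a locus as separate genes or isoforms. In the assembly used here a read cluster holds components, genes and isoforms. Where a cluster holds several genes, a gene can rise because reads move to it from a neighbour of nearly the same sequence. The loci below were picked so that no other gene of the read cluster had a value of 1 or more. The files pair none of the assembled genes with a name, and 0 of the identifiers had an entry in the RefSeq genes supplied for key lime. What the loci encode is therefore not given, neither the transgene nor leaf markers could be checked, and no sequence is shown.

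The loci were chosen by a pair of measured values. The first was the gene value, a TMM-scaled TPM (abundance per transcript length and library depth, rescaled by the authors between libraries). The second was CPM, the reads of a gene scaled to a fixed total of reads per library, from estimated isoform counts added up per gene. Of the 54600 genes, 24118 were alone in their read cluster. At least 50 reads in every library were held by 4436 of these, and 3257 also had the same most-read isoform in all 4 libraries. These 3257 are called the eligible loci. In 49 of them the lower TG value was at least 2 times the higher WT value in both measures, which is 1.5% of the eligible loci. The cap of 300 loci in the rule was not reached. Among all 15827 genes with 50 reads in every library, 2.12% met the same 2-fold condition. The mirrored condition, lower in TG, was met by 109 eligible loci (3.35%) and by 3.8% of the 15827 genes. Because the choice used the difference between genotypes, that difference is given below as a description, without a test.

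The choice is not sharp at its edges. The 3 loci that just passed had a lower ratio of 2.01, 2.02 and 2.02 in the measure that limited them. The 3 that just missed it had 1.98, 1.97 and 1.97. The first of those that missed had gene values of 17.5 and 12.5 in WT and of 43.3 and 51.6 in TG. A further 44 eligible loci reached the fold in gene values only, and 11 in CPM only. With a library left out the condition asks less, and leaving out a WT library gave 129 loci (WT 1) or 67 (WT 2), and leaving out a TG library gave 131 (TG 1) or 120 (TG 2). The genotypes were also compared over all genes, with edgeR's quasi-likelihood test at an adjusted p under 0.05, which called 14.6% of 29263 genes higher and 16.5% lower in TG. Among the eligible loci it called 7.92% higher and 7.31% lower. It called all 49 raised loci, but their choice rests on the same libraries, so nothing is read from this count.

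**Figure D1:**
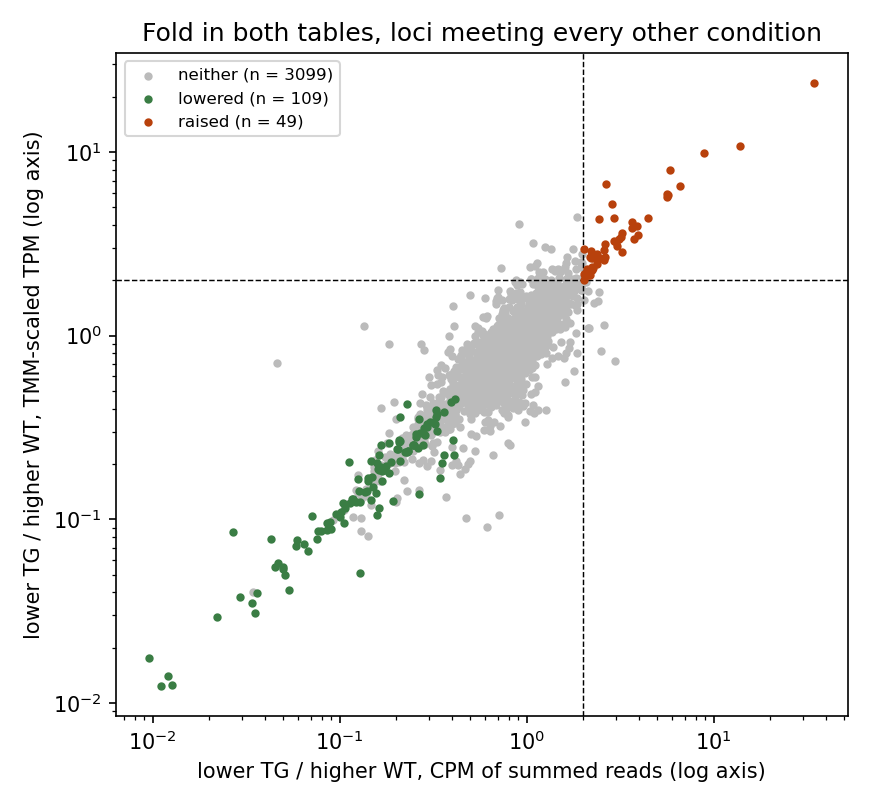
Ratio of the lower TG to the higher WT library for the 3257 eligible loci, in CPM (x, log axis) and in gene values (y, log axis), with dashed lines at the 2-fold limit. The 49 raised loci fill the upper right corner, and most have ratios below 4 in both measures. This ratio sets the closest pair of libraries for raised loci but the most distant pair for the 109 lowered loci, so the distances of these groups from 1 cannot be compared.

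For brevity the loci are numbered from 1 to 49 by their ratio in gene values, the largest first. Identifiers are given only for the locus of largest ratio and the locus of highest TG value, and all others singled out below were chosen after their values were seen. The ratio lay between 2 and 3 in 24 loci, between 3 and 4 in 11, between 4 and 6 in 8 and at 6 or more in 6. Its median was 3.07 in gene values and 2.62 in CPM, against medians of 0.832 and 0.795 over the eligible loci, where the lower TG over the higher WT library falls below 1 for an unchanged locus by construction. As the mean of TG over the mean of WT, the median fold was 4.10 in gene values and 3.34 in CPM, against 1.02 and 0.958 over the eligible loci. The scaling of the measures differs slightly. Over the 15827 genes the median log2 difference between TG and WT was 0.04 in gene values and -0.07 in CPM, so a fold reads slightly higher in gene values than in CPM.

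TRINITY_DN27128_c0_g1 (locus 1) had the largest ratio. Its gene value was 2.82 in WT 1 and 2.28 in WT 2, against 77.6 in TG 1 and 66.9 in TG 2. It was covered by 202 and 221 reads in WT and by 9888 and 8300 reads in TG. Both TG libraries stood far above both WT libraries in either measure, by 28.3-fold ± 5.17 in gene values (SD from the spread of the libraries, n = 2 per genotype) and by 38.8-fold in CPM. Locus 2 followed with gene values of 2.19 and 3.15 in WT and of 43.9 and 34.2 in TG, on 58 and 77 reads in WT and 1094 and 1272 reads in TG, a rise of 16.1-fold in CPM. The gene values of locus 2 rest on few reads, since isoforms with under 10 reads carried 71.7% and 81.4% of its isoform values in WT and 77.7% and 66.1% in TG. Its most-read isoform had 57 and 71.8 reads in WT and 1058 and 1235 in TG. Among the 29 loci whose isoform values add up to the gene value, locus 2 was the only one in which such isoforms carried over 50% of the values in any library. Locus 3 had gene values of 4.89 and 4.25 in WT and of 48.1 and 73.3 in TG. In these 3 loci low gene values in WT stood against TG values above 18.7, the median TG mean of the eligible loci.

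TRINITY_DN14358_c0_g1 (locus 31) had the highest level. Its gene value was 238 in WT 1, 242 in WT 2, 669.6 in TG 1 and 665 in TG 2, with means of 240.2 ± 2.94 for WT and 667 ± 3.39 for TG (± SD, n = 2). The libraries of a genotype lay close together, and the fold was 2.78 in gene values and 2.63 in CPM. Locus 4 came next by level. It had gene values of 30.3 and 54.4 in WT and of 437 and 457 in TG, with 254 and 563 reads in WT and 3359 and 3842 in TG. Its WT libraries differed by 1.79-fold, and both were still far below the TG libraries. Only 4 of the 49 loci had a lower TG value of 100 or more. A lower TG value between 50 and 100 was found in 11 loci, between 10 and 50 in 29 and under 10 in 5.

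**Figure D2:**
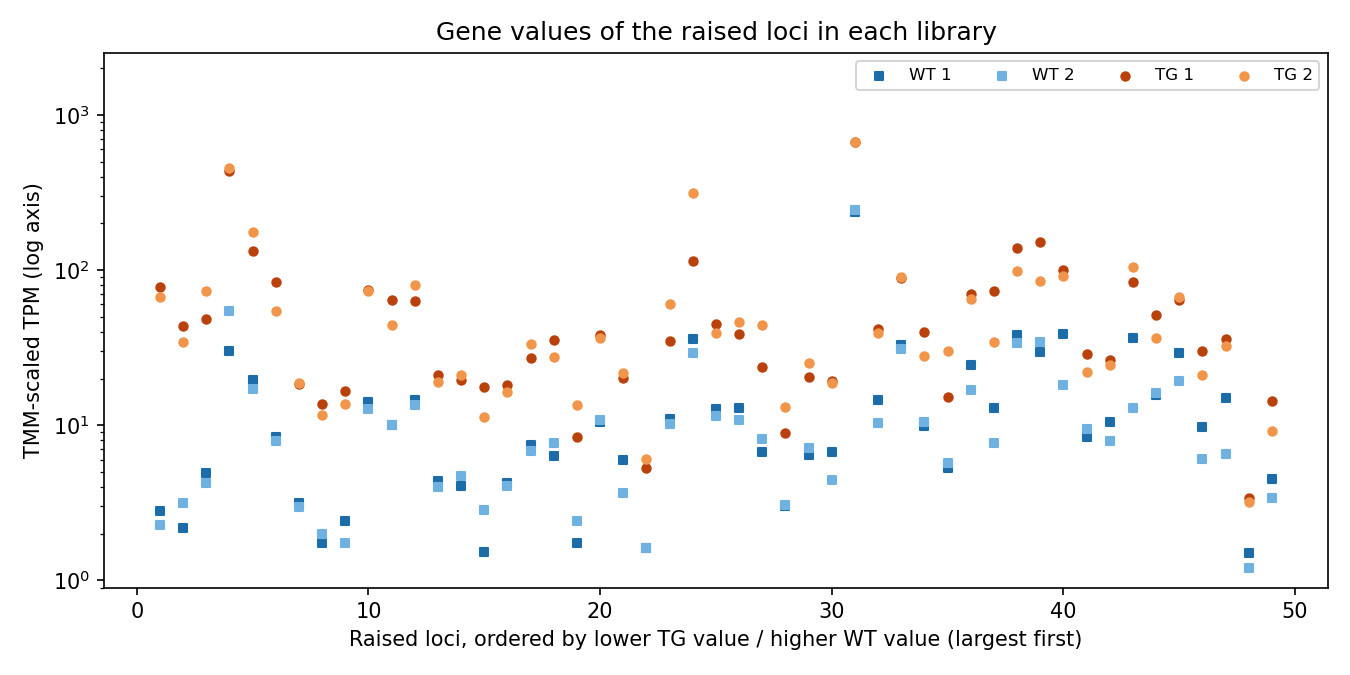
TMM-scaled TPM (y, log axis) of the 49 raised loci in each library, with the loci ordered by their ratio (x). Squares are the WT libraries and circles the TG libraries, and by the choice of loci no square lies above a circle of the same locus.

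In WT the raised loci were quieter than the eligible loci as a whole, with a median WT mean of 8.95 against 18.8. In TG they were above them, with a median TG mean of 37.5 against 18.7. A low WT level is favoured by the choice itself. Together the 49 loci took up 0.138% of the reads of WT 1, 0.111% of WT 2, 0.485% of TG 1 and 0.569% of TG 2. In bulk leaf RNA, more cells of a type and more RNA per cell cannot be told apart.

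A gene value counts transcripts per length, so loci of like value could rest on very different numbers of reads. The length that the reads and values imply, relative to the median of the eligible loci, ran from 0.0952 to 3.53 in the raised loci, with a median of 0.891. The shortest, locus 39, had gene values of 29.7 and 34.4 in WT and of 152 and 84.5 in TG on only 84.4 and 125 reads in WT and 339 and 274.5 in TG. The longest, locus 12, had gene values of 14.5 and 13.4 in WT and of 63.2 and 79.9 in TG, and these rested on 1329 and 1564 reads in WT and 7731 and 8668 in TG. The read depth behind the 2 loci thus differed far more than their levels. Locus 39 rose by 3.70-fold in gene values but by 2.69-fold in CPM. Its TG libraries also lay closer together in CPM, at 19.6 and 17.4, than in gene values. Locus 22 had the fewest reads in a library, 51 in WT 1. It had 67 reads in WT 2 and 200 and 229 in TG.

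The TG libraries lay within 1.2-fold of each other in 23 of the 49 loci (46.9%), against 45.5% of the eligible loci, and the WT libraries in 26 (53.1%) against 60.2%. A gap of more than 2-fold was found in 2 loci between the TG libraries and in 3 between the WT libraries. Locus 24 had gene values of 36.0 and 29.1 in WT, 114 in TG 1 and 315 in TG 2, and locus 37 had 12.9 and 7.72 in WT, 73.4 in TG 1 and 34.2 in TG 2. The TG libraries were thus apart in opposite directions in these loci. In WT the widest gap was in locus 43, with 36.3 in WT 1 and 12.9 in WT 2, against 83.5 and 104 in TG. Loci 47 and 40 also had the higher value in WT 1, by 2.29-fold and 2.13-fold.

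WT 1 was the higher WT library in 32 of the 49 loci (65.3%), against 48.8% of the eligible loci. TG 1 was the higher TG library in 29 (59.2%), against 54.3%. In the 109 lowered loci WT 2 was usually the higher WT library, and WT 1 was higher in 23. The median log2 ratio of WT 2 to WT 1 was -0.11 in the raised, 0.43 in the lowered and 0.01 in the eligible loci. The part that this difference between the WT libraries has in the number of raised and lowered loci was not tested.

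**Figure D3:**
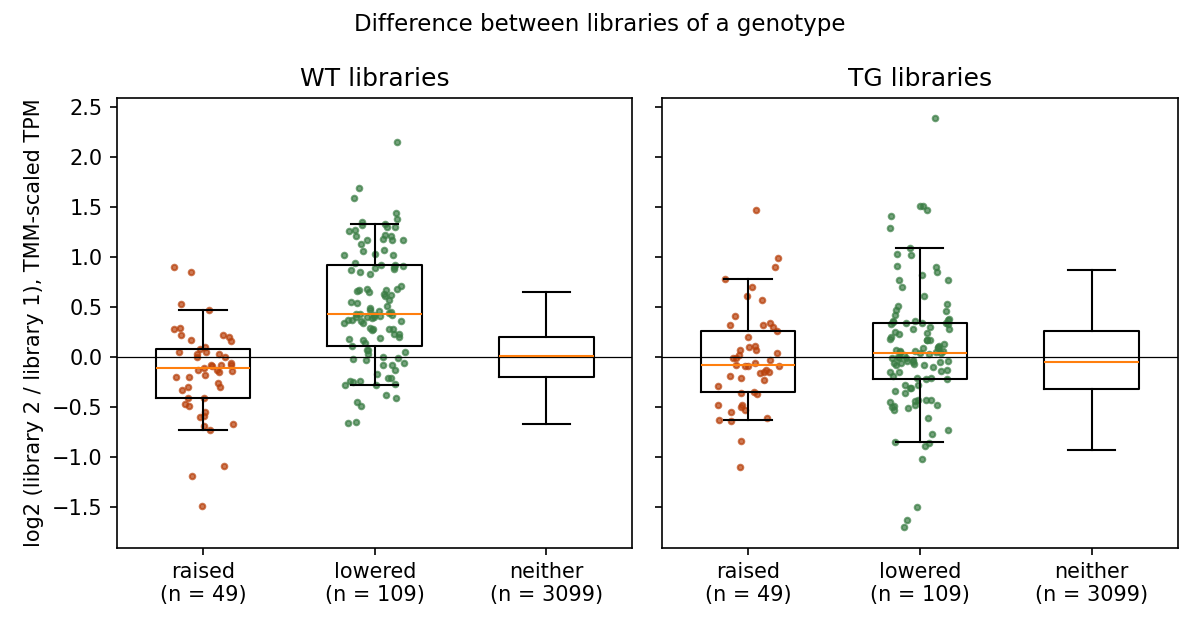
Difference between the libraries of a genotype, as log2 of library 2 over library 1 in gene values (y), for raised, lowered and remaining eligible loci. Boxes give the median and quartiles, whiskers the range from 5% to 95% of loci, and points single loci. The lowered loci lie above 0 between the WT libraries (median 0.43), while the raised loci lie around -0.11.

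Being the lone expressed gene of a read cluster did not make a locus free of alternative sequences. Of the 49 loci, 41 had no other gene listed in their read cluster, and 8 had neighbours whose values stayed at 0.678 or below. A single isoform was listed for 11 loci (22.4%, against 13.4% of the eligible loci), 2 to 4 isoforms for 23 and 5 or more for 15. Sequences were not used here, so whether isoforms are splice forms, copies of the locus from different chromosomes or fragments is not known. The table of isoform counts was used in part, up to the row where it ends, and an isoform further on would not be seen. The isoform values added up to the gene value within 1% in 29 of the 49 loci. In 1 locus they fell short although every counted isoform had a value, so an isoform is missing there, and in 19 the sum could not be decided.

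The loci listed with 1 isoform give the plainest case. Their ratio in gene values ran from 2.02 to 5.84, with a median of 2.66, and in CPM from 2.03 to 5.72, with a median of 2.59. In 8 of the 11 the isoform accounted for the whole gene value, and 7 of these 8 also had no other gene in the read cluster. Those 7 rose by 2.78-fold to 4.51-fold in gene values, as means of TG over WT. The largest rise among the 11 was in locus 8, whose read cluster holds another gene with values of 0.230 at most. Locus 8 had gene values of 1.74 and 1.997 in WT and of 13.7 and 11.7 in TG, on 151 and 229 reads in WT and 1468 and 1217 in TG. Locus 23, among the 7, had gene values of 10.9 and 10.2 in WT and of 35.1 and 60.1 in TG. Locus 17, also among the 7, had 7.50 and 6.84 in WT and 27.3 and 33.5 in TG. The TG libraries lay above the WT libraries in all of them by the choice of loci, and loci 1 to 7 all had several isoforms. Locus 36 is the one with a missing isoform, since its listed isoform made up only 29.0% of its gene value in the library where that share was lowest.

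In the 38 loci with several isoforms the rise was seen in most isoforms that could be compared. An isoform was compared where it had at least 10 reads in both libraries of a genotype, and called raised or lowered where the CPM of the genotypes lay at least 2-fold apart in every pair of libraries. The most-read isoform was raised on its own in 44 of the 49 loci, against 2.46% of the eligible loci. The other 5 loci all had several isoforms, and their most-read isoforms had ratios of 1.56 to 1.95, below the limit. Of 87 minor isoforms compared, 58 were raised (66.7%), 17 were neither and 12 were lowered (13.8%). Over all eligible loci 24.5% of minor isoforms were raised and 24.6% lowered, and over all 68993 isoforms compared in the assembly 22.9% were raised and 25.9% lowered. The choice of loci favours raised isoforms, since their reads make up the locus total. The read minimum favours them too, since an isoform of a raised locus can meet it through the TG libraries alone. The shares of raised and lowered isoforms are therefore given as a description only. In some loci with at least 2 isoforms compared, every one of them was raised, which the choice of loci favours too.

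Locus 3 was the locus with the most raised isoforms. Its most-read isoform had 119 and 94.9 reads in WT and 913 and 1294 in TG. The next had 67.5 and 43.6 reads in WT and 652 and 987 in TG. All 7 isoforms compared in this locus were raised, although 4 of them had no reads in WT 1. Locus 6 was similar, with 6 isoforms compared and raised. Its most-read isoform had 48.7 and 57.9 reads in WT and 569 and 408 in TG, and the second had 14.6 and 30.8 reads in WT and 320 and 228 in TG. The rise of both loci was thus spread over several isoforms.

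In 10 of the 49 loci a minor isoform was lowered while the locus rose. These were loci 1, 12, 15, 18, 22, 28, 30, 31, 40 and 47. Lowered minor isoforms were not particular to the raised loci. They were 13.8% of those compared here, a share that the choice of loci keeps low, against 24.6% over the eligible loci. Locus 1 held the strongest contrast. Its most-read isoform had 108 and 116 reads in WT and 8598 and 7185 in TG, and a minor one had 10.4 and 24.5 reads in WT and 1266 and 1112 in TG. A second minor isoform had 56.5 and 51.0 reads in WT but 4.16 and 2.68 in TG, and another had 25.3 and 29.9 reads in WT and none in TG. The last of these thus made up 12.5% and 13.5% of the locus in the WT libraries. The most-read isoform held 53.4% and 52.3% of the reads of the locus in WT, and 87.0% and 86.6% in TG. Reads of a locus are split between overlapping isoforms by estimation, so a change in an isoform can also be a change in the split.

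**Figure D4:**
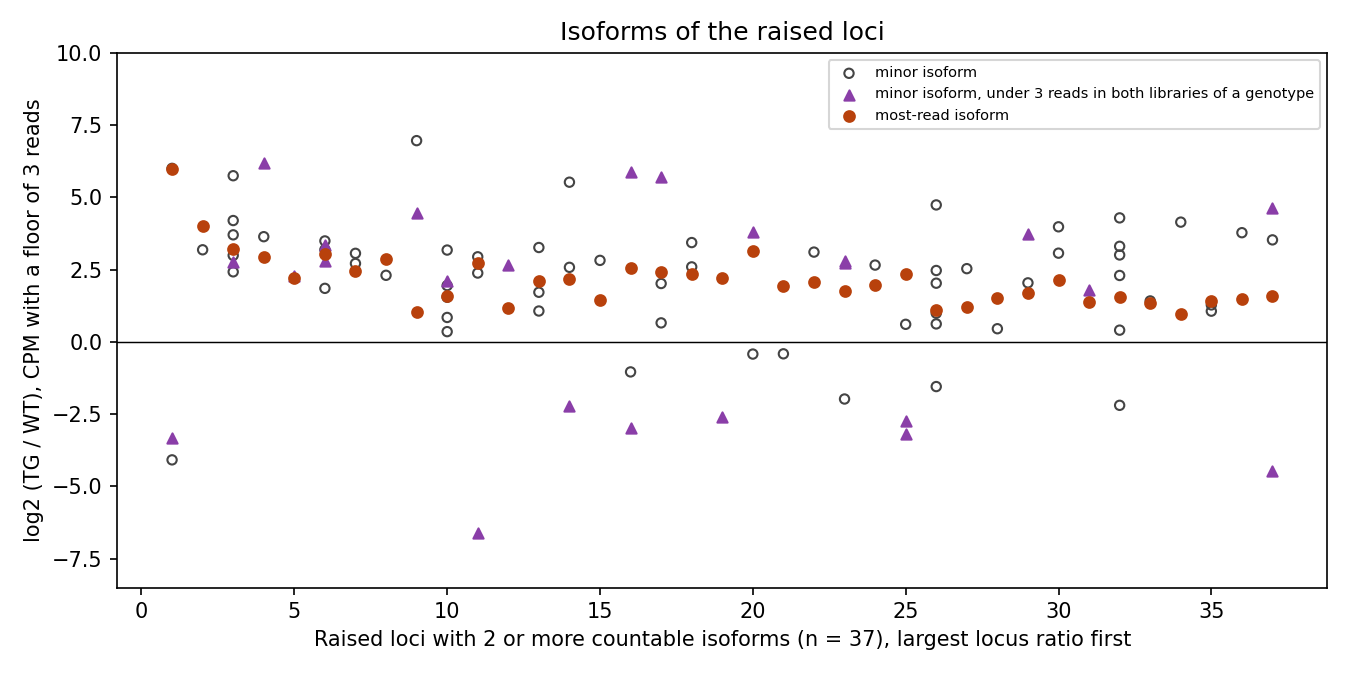
Log2 of TG over WT in CPM (y) for the isoforms of the 37 raised loci with at least 2 isoforms compared, with the loci ordered by ratio (x) and a floor of 3 reads in each library. Filled circles are the most-read isoforms, open circles minor isoforms and triangles minor isoforms with under 3 reads in both libraries of a genotype. All most-read isoforms lie above 0, and minor isoforms lie on both sides of it.

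Isoforms of 1 genotype only were found in 13 of the 49 loci (26.5%), against 21.7% of the eligible loci. Such an isoform had at least 10 reads in both libraries of a genotype and none in the other libraries, where a count of 0 allows up to 3 reads. Isoforms read in TG only numbered 10, in 9 loci, or 11.5% of the 87 minor isoforms against 7.63% over the eligible loci and 8.28% over all isoforms compared. Isoforms read in WT only numbered 6, in 6 loci, or 6.90% against 6.73% and 7.15%. The choice of loci favours isoforms read in TG only, since loci with more reads in TG meet the minimum of 10 reads there more easily. The differences between these shares were not tested. Loci 18 and 47 held both kinds. In locus 47 the WT isoform had 69.6 and 48.1 reads in WT, or 27.9% and 34.8% of the locus, and the TG isoform had 88.6 and 76.9 reads in TG, or 12.5% and 11.8%. The most-read isoform of locus 47 had 166 and 78.9 reads in WT and 461 and 400.2 in TG. In locus 18 the TG isoform had 199.9 and 190.4 reads in TG (22.6% and 28.0% of the locus), and the WT isoform had 18.7 and 24.8 reads in WT.

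The WT isoform with the most reads belonged to locus 12, the longest of the raised loci. It had 249 and 279.5 reads in WT, or 18.8% and 17.9% of the locus, and none in TG, which is at least 86.5-fold lower in TG with a floor of 3 reads in each TG library. Its most-read isoform had 797 and 838 reads in WT against 6319 and 5746 in TG. The TG isoform with the most reads belonged to locus 4, with 239 and 250.1 reads in TG and none in WT, at least 60.8-fold higher on the same floor. It made up 7.12% and 6.51% of the reads of locus 4 in TG, and the most-read isoform of that locus made up 91.9% in both TG libraries.

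The share of a locus held by its most-read isoform often differed between genotypes. In the 38 loci with several isoforms this share was higher in both TG libraries than in both WT libraries in 9 and lower in 16. Over the eligible loci with several isoforms it was higher in 34.8% and lower in 33.9%. The mean share moved by at least 10 percentage points in 17 of the 38 loci (44.7%), against 37.3% of the eligible loci. The largest increase was in locus 30, with 61.7% and 47.2% in WT against 97.0% and 96.0% in TG, and in locus 24 it went from 62.2% and 63.1% to 96.2% and 93.9%. The share of locus 10 was 99.5% and 98.7% in WT but 70.1% and 62.9% in TG. Added up over the 49 loci, most-read isoforms accounted for 82.5% and 81.1% of locus reads in the WT libraries, against 83.3% and 81.6% in the TG libraries.

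**Figure D5:**
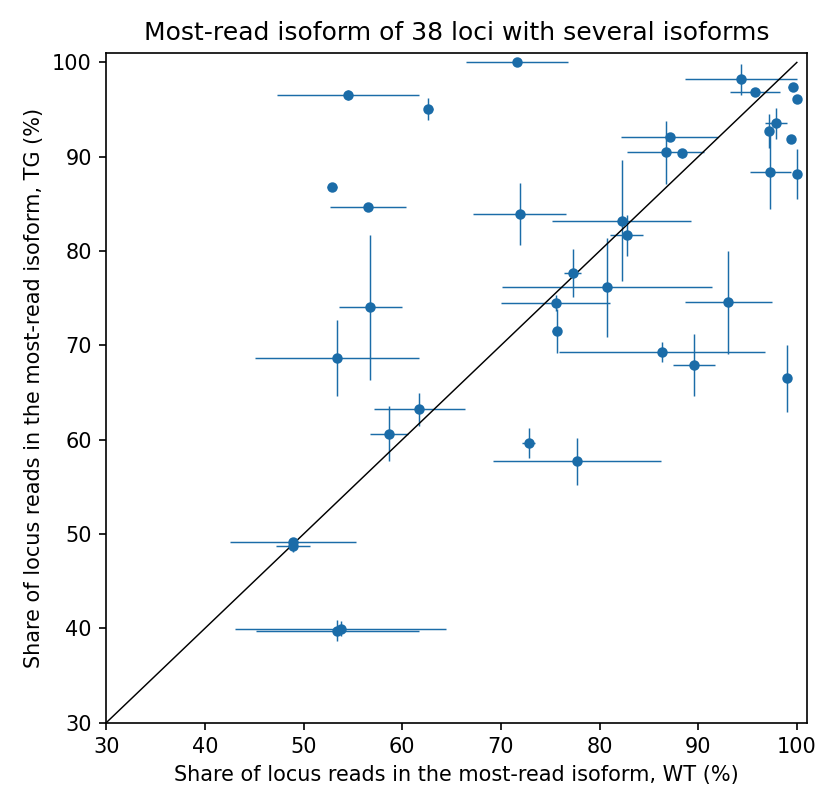
Share of the reads of a locus held by its most-read isoform in WT (x, %) and in TG (y, %), for the 38 raised loci with several isoforms. Points are means of 2 libraries, bars span the 2 libraries and the line marks equal shares. Loci lie on both sides of the line, with locus 10 at about 99% in WT and under 71% in TG.

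In 4 loci the fold in gene values and the fold in CPM lay more than 1.5 times apart (8.16%, against 8.78% of the eligible loci). These were loci 5, 10, 11 and 13, and in all 4 the gene value rose more than the reads. Locus 13 had gene values of 4.37 and 3.97 in WT and of 21.1 and 18.9 in TG, a rise of 4.79-fold. It had 58 and 69 reads in WT against 185 and 173 in TG, a rise of 2.56-fold in CPM. An isoform read in TG only, with 17 and 25 reads, made up 9.19% and 14.5% of its reads in TG but 46.6% and 50.6% of its isoform values. A value per length counts a read of a short transcript more than one of a long transcript. In locus 5, 12 and 20 reads in TG carried 49.0% and 37.8% of the isoform values, while the most-read isoform had 425 and 822 reads. Gene value rose 8.36-fold and CPM 4.79-fold in that locus. Locus 11 had an isoform with 10 and 14.0 reads in WT against 129 and 109 in TG, which went from 29.5% and 32.2% of its isoform values to 70.0% and 62.0%. In these 3 loci a minor isoform held a far larger share of the isoform values than of the reads in TG. In locus 10 a minor isoform had 1.48 and 4.15 reads in WT and 448 and 523 in TG. The most-read isoform of locus 10 gained more reads, with 452 and 520 in WT and 1198 and 1028 in TG, but its ratio in CPM was 1.91 and thus under the 2-fold limit.

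The most abundant locus, TRINITY_DN14358_c0_g1, showed a like spread among its 7 isoforms compared. Its most-read isoform had 1233 and 1682 reads in WT and 3350 and 3477 in TG, a ratio of 1.95. A minor isoform had 32.7 and 38.8 reads in WT and 1041 and 1061 in TG, moving from 1.91% and 1.69% of the locus to 19.0% and 17.7%. Another had 83.2 and 117 reads in WT but 33.7 and 40.6 in TG. In all, 3 of its isoforms were raised, 1 was lowered and 3 were neither.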

How the data were processed

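Per the labels' protocols, total RNA of leaves was the input of a SMARTER mRNA-Seq library kit. Bowtie2, RSEM and DESeq2 are named per the submitters' processing notes, without roles or versions, and the identifiers have the form of a Trinity assembly. No genome build was named. The authors deposited gene and isoform tables of TMM-scaled TPM signal (per their names and column sums) and a table of expected counts per isoform, as RSEM gives (per the file headers). The last row of 3 of the 4 tables is incomplete and was dropped. A table named gene counts held gene values times a constant per library (13.7553 to 13.7567 in WT 1, from 1% to 99% of genes) and was used only for this check.

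The expected counts of 184761 isoforms were added per gene, 13203570 and 16935804 reads in WT and 17309047 and 15729398 in TG, and rounded for the count tests. These are totals of the part of the table used, which may fall short of the full depth. The strand setting of the counting is unknown, so overlapping or similar genes may share reads. The members, lists and tests were chosen with earlier results of these data known. All genes were tested with edgeR 4.0.16 (R 4.3.3; quasi-likelihood, TMM factors, filterByExpr, Benjamini-Hochberg), with DESeq2 1.42.0 and limma 3.58.1 as alternatives, after a check on simulated data. No separate test was run on the members, and their calls in the fit over all genes support nothing, because the rule used the same contrast. Identifiers were printed for the locus of highest lower TG value and the locus of largest ratio. A count of 0 allows up to 3 reads, and this floor covers counting error only.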

Additional observations from a re-analysis of the deposited data

How the results depend on the processing

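Of 50 alternative values 33 stayed near the reported one, 17 moved and 0 reversed direction. Nothing is read from the 0, since counts have no direction and the folds are of loci chosen for being higher in TG. The 49 loci became 134 at a fold of 1.5, 18 at 3, 88 with a minimum of 20 reads, 93 with the fold asked of gene values alone and 29 where isoform values had to add up to the gene value, all by construction of a looser or tighter rule. They became 67 to 131 with a library left out. All 49 were among them by construction, since the rule then asks less. The median fold of 4.10 became 3.34 in CPM, 3.70 in CPM with edgeR's TMM factors and 3.65 in CPM of the most-read isoform, and 3.81 to 4.26 with a library left out. The 58 raised minor isoforms became 25 of 43 in loci of complete isoforms and 59 to 73 with a library left out. Over all genes edgeR called 9100, and 3918 to 8073 with a library left out (5708 without WT 1 and 3918 without WT 2), where the lone library is assumed to vary like the others. The replicate number as a block gave 10287 calls, DESeq2 8380 and limma 9018. Nothing in the labels ties libraries of the same number, whose deviations from their genotype means had r = 0.195 across genes, so the replicate block did not enter the design. The fold of the locus of largest ratio was 28.3 in gene values, 38.8 in CPM and 20.6 with a pseudocount of 1. The alternatives on complete isoforms, on minor isoforms and on CPM with TMM factors for the median fold were chosen after seeing the data.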

Other observations

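Loci that rose from very low WT levels lie outside the 49, because the rule asks for 50 reads in every library. Among genes alone in their read cluster, 204 met the 2-fold condition in both measures with at least 50 reads in both TG libraries and under 50 in a WT library, and 34 of these had no reads in either WT library. Downward, 345 lone genes met the mirrored condition with at least 50 reads in both WT libraries and under 50 in a TG library. In the upward direction a further 21 loci met the 2-fold condition and the read minimum but changed their most-read isoform between libraries. For the mirrored condition this number was 42.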
